A study of Mus musculus with 72 samples.

Results

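Transcripts of 6 genes known for their roles in the suprachiasmatic nucleus (SCN), the hypothalamic seat of the central circadian clock, were followed by RNA-seq: the transcription factors Lhx1, Six6, Zfhx3 and Rorb, the G-protein regulator Rgs16 and the vesicle protein Syt10. The members were chosen by symbol. All 6 were found among the 15759 genes of the SCN count table, and 3 of them (Lhx1, Zfhx3 and Rgs16) among the 22823 genes of the liver table. C57BL/6 mice aged 8 to 12 weeks were fed for 11 days on food without methionine and choline (MCD diet) or on an isocaloric control food. They were kept in a light-dark cycle for 10 days and in constant darkness on the last day, when tissue was taken at 6 circadian times (CT), 4 h apart. Each of the 12 groups of diet and time in each tissue held 3 libraries, 2 labelled male and 1 labelled female, so that 36 SCN and 36 liver libraries entered. The SCN was cut out by laser from stained brain sections, and libraries were made from polyadenylated RNA. The labels name no transgene or mutation in any group.

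Lhx1, Six6 and Zfhx3 are homeodomain proteins. Six6 is needed for the SCN and the eye to form, Lhx1 for the late steps of SCN differentiation and for the peptides that couple its neurons, and Zfhx3 for normal period length and neuropeptide expression in the adult. Rorb encodes an orphan nuclear receptor of the ROR family, whose members activate clock genes through ROR response elements. Rgs16 encodes a GTPase-activating protein that shortens signalling by Gi-coupled receptors and thereby releases cAMP production, a process tied to the early part of the SCN's day. Syt10 encodes a synaptotagmin, a calcium sensor of vesicle release, and its promoter is used to drive Cre recombinase in the SCN.

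The sequences below are the 250 bases before the start sites of Rgs16 and Rorb, shown because both transcripts rose and fell together over the day, and of Lhx1, the one member whose window held a searched motif. They are from RefSeq on build GRCm38.p6, read 5′ to 3′ on the gene's strand: Rgs16 at chr1:153740103-153740352 (plus), Rorb at chr19:19111197-19111446 (minus) and Lhx1 at chr11:84525535-84525784 (minus). Capitals mark the core of the cAMP element.
Rgs16: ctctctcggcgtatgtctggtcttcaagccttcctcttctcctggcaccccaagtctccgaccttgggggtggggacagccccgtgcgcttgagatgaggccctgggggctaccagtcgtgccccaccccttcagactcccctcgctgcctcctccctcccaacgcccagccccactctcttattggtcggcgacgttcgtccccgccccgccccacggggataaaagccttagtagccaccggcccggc
Rorb: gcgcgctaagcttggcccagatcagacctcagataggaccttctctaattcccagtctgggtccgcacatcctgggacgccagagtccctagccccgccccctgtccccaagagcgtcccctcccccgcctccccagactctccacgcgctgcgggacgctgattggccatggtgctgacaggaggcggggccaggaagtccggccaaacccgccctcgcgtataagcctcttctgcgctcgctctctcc
Lhx1: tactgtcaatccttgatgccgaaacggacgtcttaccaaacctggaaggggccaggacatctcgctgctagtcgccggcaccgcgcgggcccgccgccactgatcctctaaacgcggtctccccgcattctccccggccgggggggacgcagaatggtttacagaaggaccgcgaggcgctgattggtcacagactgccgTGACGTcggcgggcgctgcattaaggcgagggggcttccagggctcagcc
Windows of 300 bases, from 250 before to 50 after the start, were searched on both strands for an E-box (CACGTG), a D-box (TTATNTAA), a ROR element (NTAGGTCA), a cAMP element (TGACGTCA) and its core (TGACGT), which the full element contains. Among 32851 windows of the table, 7.15% held the E-box, 3.51% the D-box, 2.59% the ROR element, 1.79% the cAMP element and 7.51% its core. Of the 7 windows of the 6 members (Rorb has 2), only that of Lhx1 held a match, the core 50 bases before the start.

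SCN libraries held 23.3 to 79.8 M counts (median 57) and liver libraries 52.6 to 86.7 M (median 64.4). Female SCN libraries were shallower (44.3 ± 14.3 M, SD, n = 12) than male ones (58.2 ± 13.6 M, n = 24). Defining SCN peptides were high in every SCN library (Vip 702 to 1570 CPM, Avp 142 to 1370 CPM), and all 6 neuronal markers were present (summed 2330 to 3430 CPM). Markers of other cells were also present: all 9 of oligodendrocytes and optic tract summed to 1280 to 2580 CPM, all 6 of astrocytes to 2200 to 3140 CPM, 3 of 6 of ependyma to 62.1 to 195 CPM and 5 of 10 of hypothalamus outside the SCN to 68.1 to 262 CPM. CPM are counts scaled to a library total of 1 M with TMM factors (the trimmed mean of log ratios between libraries). In such bulk pieces, fewer cells of a type and less RNA per cell cannot be told apart. The labels do not say that each library came from its own mouse, so p-values measure the spread between these libraries.

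All 6 members passed the filter on low counts in the SCN, as did all 15759 genes of its table. The lowest count of a member in a library was 435 (Syt10). Per kilobase of exon, Rgs16 was the most abundant at 190 CPM per kb on the control diet and 206 on MCD. Six6 followed at 48.4 and 49.5 CPM per kb, Syt10 at 35.7 and 42.5, Lhx1 at 26.5 and 29.4, and Rorb at 17.6 and 17.5. Zfhx3, whose exons span 21 kb, was lowest at 4.17 and 4.24 CPM per kb. These lengths join all annotated exons, and counts were not spread evenly over their parts. The fullest part held 87.2% of counts for Rorb, 72.7% for Six6, 70.8% for Zfhx3, 67.2% for Rgs16, 39.1% for Lhx1 and 26% for Syt10. The order per kb thus depends on annotated length. By CPM, SCN means were 463 for Rgs16, 196 for Six6, 194 for Rorb, 114 for Lhx1, 88.2 for Zfhx3 and 72.2 for Syt10. The genes lie on 6 chromosomes of build GRCm38 (GENCODE M21): Lhx1 at chr11:84518284-84525535, Six6 at chr12:72939892-72944899, Zfhx3 at chr8:107942644-108961630, Rorb at chr19:18930605-19111196, Rgs16 at chr1:153740349-153745468 and Syt10 at chr15:89782393-89841860. Six6 shares 192 exon bases with 4930447C04Rik, and Rgs16 shares 236 with Gm28513, both on the opposite strand. The sources used here do not say whether counting used strand, and a part of these counts could come from the partner.

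**Figure D1:**
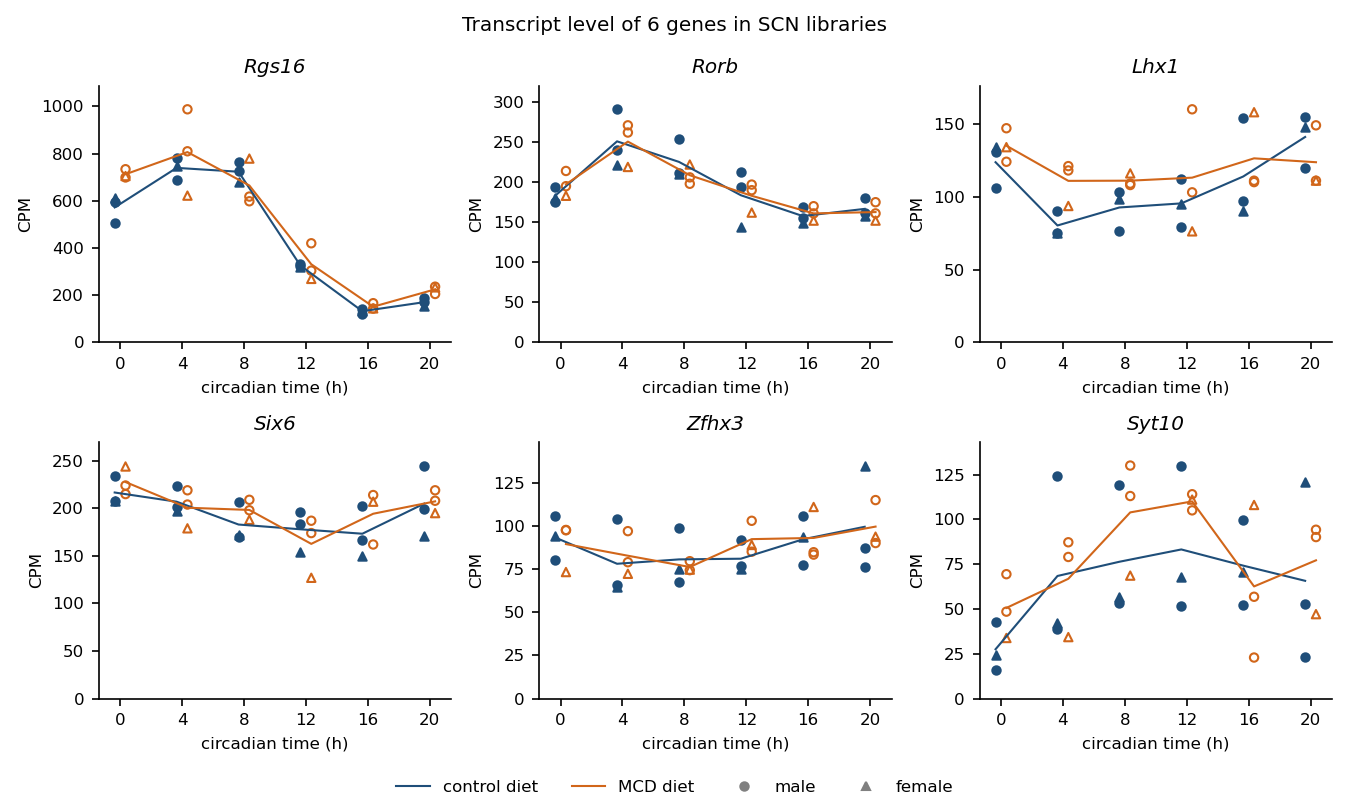
Level of the 6 members in each of the 36 SCN libraries (CPM, linear axis from 0) against circadian time (h), control diet in filled blue and MCD in open orange symbols, circles for males and triangles for females, lines through the means of 3 libraries. Rgs16 lay between 622 and 988 CPM at CT4 and between 122 and 166 CPM at CT16, while Syt10 at CT20 on the control diet spread from 23.4 to 121 CPM.

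Transcript level followed the time of day in 4 of the 6 members on the control diet (Rgs16, Rorb, Lhx1 and Six6) and in 3 on MCD (Rgs16, Rorb and Six6). For rhythm, a 24 h curve (a cosine and a sine term) was contrasted over the 6 times, with edgeR's quasi-likelihood F test and Benjamini-Hochberg adjustment over all genes, called at an adjusted p under 0.05. The background was 15.1% of all 15759 genes called on the control diet and 16.1% on MCD. DESeq2 and limma gave the same counts of members. Cell type markers were called too. On control these were 2 of 6 for neurons, 2 of 9 for oligodendrocytes, 2 of 3 for ependyma and 2 of 5 for endothelium. For astrocytes 0 of 6 and for microglia 0 of 5 were called. On MCD the counts were 2, 1, 0 and 1 in the same order, with 1 for astrocytes and 0 for microglia. Their part in the members' rhythms was not tested. Where the highest and the lowest of the 6 time means are compared below, they were picked by their values: libraries of those times did not overlap in 55.2% of all genes on the control diet and 56.7% on MCD, so nothing is read from their separation.

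Rgs16 had the largest rhythm of the 6, and by p-value it ranked 1 of all SCN genes on either diet. On the control diet its 3 libraries held 597, 506 and 613 CPM at CT0, 783, 689 and 747 CPM at CT4, and 679, 763 and 728 CPM at CT8. They then held 332, 325 and 319 CPM at CT12, 142, 122 and 132 CPM at CT16, and 186, 172 and 153 CPM at CT20. The values of CT0, CT12, CT16 and CT20 did not overlap those of any other time, and only CT4 and CT8 overlapped. The mean at CT4 (739 ± 47.6 CPM, SD, n = 3) was 5.6 times that at CT16 (132 ± 10.2 CPM). The fitted peak lay at CT 5.05 ± 0.16 h (SE), with a peak-to-trough difference of 2.73 ± 0.12 on the log2 scale, a 6.61-fold range (adjusted p = 6.23e-16).

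On MCD the Rgs16 libraries held 699, 734 and 705 CPM at CT0, 810, 988 and 622 CPM at CT4, and 618, 598 and 779 CPM at CT8. At CT12 they held 420, 304 and 269 CPM, at CT16 166, 143 and 144 CPM, and at CT20 205, 236 and 233 CPM. The first 3 times overlapped each other, and CT12, CT20 and CT16 followed in falling order without overlap. The mean at CT4 (807 ± 183 CPM) was 5.34 times that at CT16 (151 ± 12.9 CPM). The peak was at CT 4.38 ± 0.18 h and the peak-to-trough difference 2.51 ± 0.12 (log2; adjusted p = 4.9e-15). The rhythm of Rgs16 passed the test under each alternative run on either diet, leaving out each library included.

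Rorb, the nuclear receptor, rose and fell in the same part of the day but far less. Its control libraries held 291, 240 and 222 CPM at CT4 and 169, 155 and 149 CPM at CT16, and the MCD libraries 262, 271 and 219 CPM at CT4 and 170, 161 and 152 CPM at CT16. Libraries of CT4 were thus all above those of CT16 on each diet, while neighbours in the order of the 6 times overlapped. The mean at CT4 was 1.59 times that at CT16 on the control diet (251 ± 36.1 against 158 ± 10.2 CPM) and 1.55 times on MCD (250 ± 27.6 against 161 ± 9.22 CPM). The peak lay at CT 5.5 ± 0.46 h on the control diet (peak-to-trough 0.64 ± 0.08, log2; adjusted p = 2.03e-06) and at CT 4.93 ± 0.49 h on MCD (0.59 ± 0.08; adjusted p = 6.18e-06). The calls for Rorb held under each alternative run.

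Lhx1 was lowest when Rgs16 and Rorb were highest. On the control diet its libraries held 90.4, 75.0 and 75.3 CPM at CT4 and 120, 155 and 148 CPM at CT20, with 131, 106 and 134 CPM at CT0. At CT8 they held 98.7, 103 and 76.1 CPM, at CT12 112, 79.0 and 95.2 CPM, and at CT16 154, 97.2 and 90.4 CPM. The mean at CT20 (141 ± 18.7 CPM) was 1.75 times that at CT4 (80.2 ± 8.77 CPM) with no overlap, and neighbours in the order of the means overlapped. The fitted peak was at CT 19.73 ± 1.02 h with a peak-to-trough difference of 0.69 ± 0.18 (log2; adjusted p = 0.0175). The call was lost without 1 library, the control CT8 male called b (adjusted p = 0.0686), and in a test of any difference among the 6 times (0.0714). It was also lost with replicate number as a block (peak-to-trough 0.61, log2). As in each gene fit with this block, the control CT8 males a and b, which carry no number, were left out. That group then held 1 library, so blocking and the loss of these libraries cannot be told apart.

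On MCD, Lhx1 held 118, 121 and 93.6 CPM at CT4, the lowest mean, and 124, 147 and 134 CPM at CT0, the highest, 1.22 times as much with no overlap. At CT20 it held 149, 111 and 111 CPM, a range that overlapped that of CT4. Its peak-to-trough difference there was 0.27 ± 0.18 (log2; adjusted p = 0.552). The difference in rhythm between the diets did not pass the test (adjusted p = 1), so a rhythm called on one diet alone does not show that the diets differed.

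Six6 varied little. The libraries held 234, 208 and 208 CPM at CT0 and 203, 167 and 150 CPM at CT16 on the control diet, and 215, 224 and 244 CPM at CT0 and 187, 174 and 127 CPM at CT12 on MCD. The highest and lowest times did not overlap, with ratios of means of 1.25 (217 ± 15.2 against 173 ± 26.6 CPM) and 1.4 (228 ± 14.5 against 163 ± 31.6 CPM), and neighbours in the order overlapped. Its peak lay at CT 0.72 ± 1.14 h on the control diet (0.34 ± 0.10, log2; adjusted p = 0.0419) and at CT 23.95 ± 1.04 h on MCD (0.37 ± 0.10; adjusted p = 0.0242).

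Both Six6 calls lay close to the threshold. The control call was lost without 1 of 10 control libraries: male 1 or the female of CT0, CT4 or CT12, male b or the female of CT8, and male 2 or the female of CT16 (adjusted p 0.0543 to 0.124), and with males alone (0.153). It was also lost with library totals in place of scaled ones (0.0969), without the sex term (0.103) and in the test of any difference among times (0.221). With the replicate block, which left out the control CT8 males, the call was lost at a peak-to-trough difference of 0.33 (log2). The MCD call was lost without the female of CT0 (0.133) or of CT12 (0.12), with males alone (0.209), without the sex term (0.0708) and in the test of any difference among times (0.0819).

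**Figure D2:**
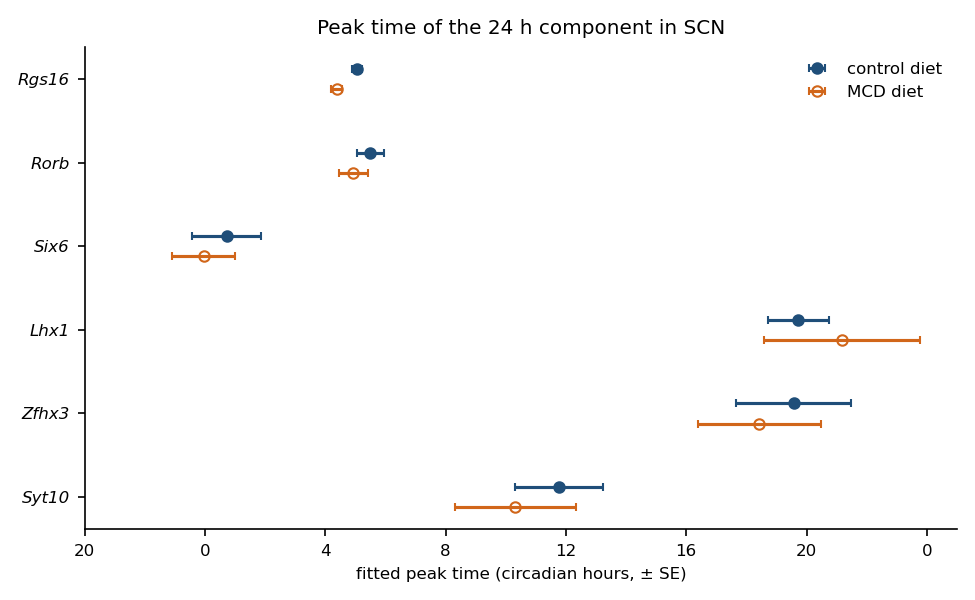
Fitted peak time of the 24 h component (circadian hours, axis from CT20 through CT0 of the next day, error bars 1 SE) of each member in the SCN, control diet filled and MCD open. Rgs16 and Rorb peaked between CT4 and CT6, Six6 near CT0 and Lhx1 on the control diet near CT20; Zfhx3 and Syt10 are drawn although their rhythm was not called.

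Zfhx3 ranged over the 18 control libraries from 64.4 to 135 CPM and over the 18 MCD libraries from 72.3 to 115 CPM. Means ran from 78.2 ± 22.6 CPM at CT4 to 99.4 ± 30.9 CPM at CT20 on the control diet, with overlapping ranges, and from 76.2 ± 2.94 CPM at CT8 to 99.8 ± 13.7 CPM at CT20 on MCD. Its rhythm did not pass the test (peak-to-trough 0.35 and 0.33 in the edgeR fit; adjusted p = 0.275 and 0.321).

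Syt10 was the most variable member between libraries of one group. On the control diet they held 42.5, 15.9 and 24.2 CPM at CT0, 124, 38.8 and 42.4 CPM at CT4, and 56.8, 119 and 53.2 CPM at CT8. Later libraries held 130, 51.7 and 67.9 CPM at CT12, 99.6, 52.2 and 70.7 CPM at CT16, and 23.4, 52.7 and 121 CPM at CT20. High and low libraries stood in the same group at each of the 5 times after CT0. The highest mean, at CT12, was 3.02 times the lowest, at CT0, on the control diet and 2.18 times on MCD, with no overlap on either diet. On MCD the CT12 libraries were close to each other (114, 105 and 111 CPM), while those of CT16 held 22.9, 56.8 and 108 CPM. The rhythm of Syt10 was fitted with a peak-to-trough difference of 1.15 on the control diet (adjusted p = 0.24) and 0.94 on MCD (adjusted p = 0.368), and neither passed.

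The spread around group and sex means was 0.74 (residual SD, log2 CPM) for Syt10, above that of 99.5% of 2401 SCN genes of similar level. It was 0.28 for Lhx1 (above 96.8% of such genes), 0.26 for Zfhx3 (94.1%), 0.17 for Rgs16 (81.3%), 0.15 for Six6 (70.3%) and 0.12 for Rorb (43.0%). The median over all genes was 0.22, a value that includes low genes. Differences in Syt10 of the size seen for Rorb or Six6 were thus not detectable at this spread.

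No member passed a test between the diets in the SCN. The mean difference over the 6 times, MCD minus control, passed the test for 0 of 6 members in edgeR, DESeq2 and limma, with 1 of 6 (Rgs16) at an unadjusted p under 0.05, against a background of 0.0635% of all genes in edgeR (10 genes, 746 at an unadjusted p under 0.05). Of all genes DESeq2 called 48 and limma 20. Averaged over 18 libraries a diet, Rgs16 held 444 ± 257 CPM on control and 482 ± 274 on MCD, a difference of 0.16 ± 0.05 (SE, log2; adjusted p = 0.636). Lhx1 held 108 ± 26.9 and 120 ± 22.3 CPM (0.18 ± 0.09; adjusted p = 1). The 95% interval of the difference ran from -0.07 to 0.13 for Six6, from -0.08 to 0.08 for Rorb, from -0.14 to 0.19 for Zfhx3 and from -0.23 to 0.77 for Syt10.

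At single times, 0 of 6 members passed at any of the 6 times in edgeR, DESeq2 or limma. The background in edgeR was 0.00635% of genes at CT0, CT16 and CT20, 0.0444% at CT4 and 0.0% at CT8 and CT12, and members at an unadjusted p under 0.05 numbered 1 at CT0 (Rgs16), CT4 (Lhx1) and CT20 (Rgs16) and 0 at the other times. DESeq2 called 29 of all genes at CT0, 21 at CT4, 5 each at CT8, CT12 and CT16, and 23 at CT20. Rgs16 was higher in every MCD library than in every control library at CT0, CT16 and CT20, as were 5.34%, 4.23% and 4.25% of all genes at those times. The differences were 0.31 ± 0.13 at CT0 (log2; adjusted p = 1), 0.19 ± 0.13 at CT16 (adjusted p = 1) and 0.40 ± 0.13 at CT20 (adjusted p = 0.543). Lhx1 showed such a separation at CT4 and CT8, as did 4.16% and 4.25% of genes, with differences of 0.46 ± 0.21 (adjusted p = 0.892) and 0.26 ± 0.21 (adjusted p = 1). Separations of this kind were thus as frequent among all genes as these shares show, and nothing was read from them.

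The rhythm itself also did not pass the test of a diet difference in any member (0 of 6 in edgeR, DESeq2 and limma, 1 at an unadjusted p under 0.05, Rgs16), with 0.0127% of all genes called in edgeR (2 genes, 596 unadjusted). Of all genes DESeq2 called 8 and limma 1. For Rgs16 the fitted peak was 0.67 h earlier on MCD (MCD minus control -0.67 ± 0.24 h, 95% interval -1.16 to -0.17 h), and the test of its rhythm difference gave an adjusted p of 1. The same difference was -0.56 h for Rorb (-1.96 to 0.83 h), -0.78 h for Six6 (-3.96 to 2.41 h) and 1.45 h for Lhx1 (-4.3 to 7.2 h). It was -1.45 h for Syt10 (-6.59 to 3.69 h) and -1.15 h for Zfhx3 (-6.93 to 4.62 h), which were not called rhythmic, so 5 of 6 members were fitted earlier on MCD and 1 interval, that of Rgs16, did not include 0. Of all SCN genes 62.2% were fitted earlier on MCD and 9.85% had an interval without 0, and of the 1556 genes called rhythmic on both diets 84.0% and 19.8%, so the members' direction was that of most genes. The 4 clock genes with the smallest p were fitted earlier on MCD as well, Nr1d1 at CT 2.2 against CT 3.1, Per2 at CT 8.6 against CT 9.3, Nr1d2 at CT 6.0 against CT 6.7 and Bhlhe41 at CT 4.1 against CT 5.2. In edgeR 0 of 17 clock and output genes passed the test of a rhythm difference. With DESeq2 1 passed, and 1 without the female of control CT12. On simulated counts with a rhythm difference of 1 on the log2 scale, 41% of changed genes were recovered, and of 0.5, 8%.

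Rorb and Six6 were lower in female than in male SCN libraries. Rorb held 179 ± 30.9 CPM in 12 female and 202 ± 37.4 CPM in 24 male libraries, and Six6 183 ± 30.9 and 203 ± 20.9 CPM. The difference within groups, female minus male, was -0.16 ± 0.04 for Rorb (SE, log2; adjusted p = 0.0127) and -0.16 ± 0.05 for Six6 (adjusted p = 0.0401), where 9.89% of all genes were called and 4.98% called lower in females. The number of all genes called, 1558, was 771 without the female of MCD CT4 and 2377 without that of MCD CT16. The female library was the lowest of its group in 10 of 12 groups for Rorb and in 8 of 12 for Six6. Lhx1 (-0.07 ± 0.09), Zfhx3 (-0.03 ± 0.08), Rgs16 (-0.07 ± 0.06) and Syt10 (-0.19 ± 0.27) did not pass.

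**Figure D3:**
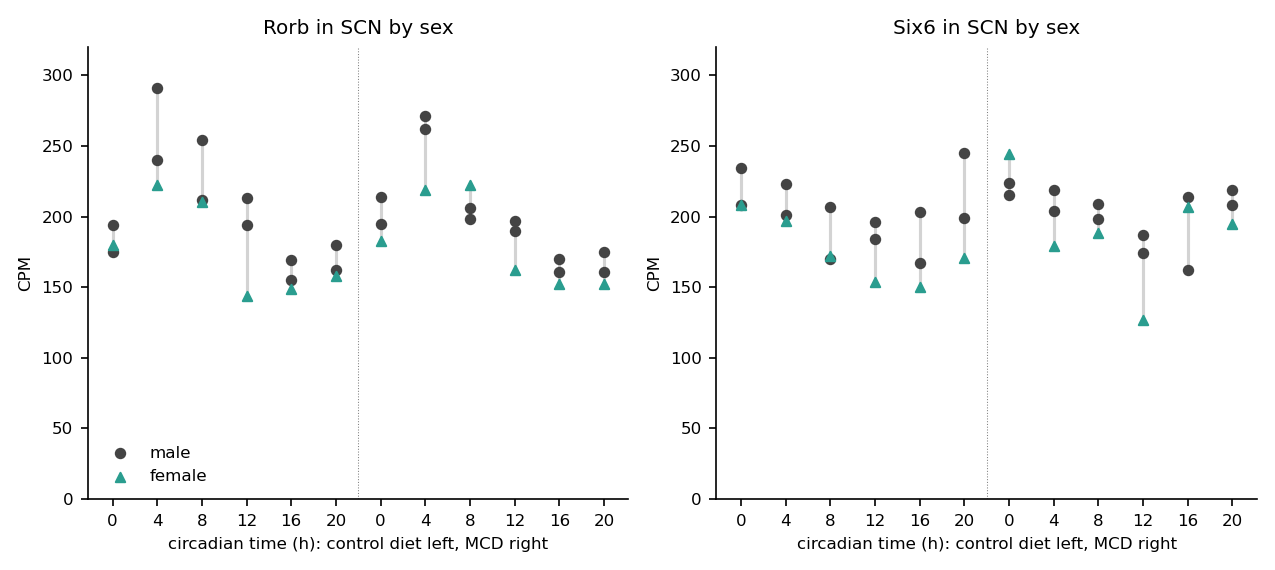
Rorb and Six6 in each SCN library (CPM, linear axis from 0) by group, the 6 times of the control diet to the left of the dotted line and those of MCD to the right, males as grey circles and females as green triangles, with a line from the lowest to the highest library of each group. The female of the MCD CT8 group for Rorb and of MCD CT0 for Six6 stood above both males.

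The Rorb call held without any single library. That of Six6 was lost without 1 of 18 of the 36 libraries: on the control diet male 1 or the female of CT0, CT4 or CT16, male a or the female of CT8, the female of CT12, and male 2 or the female of CT20, and on MCD male 2 or the female of CT4, any library of CT12, male 1 of CT16 and the female of CT20 (adjusted p 0.0505 to 0.114). The females all carry the replicate number 3, so sex and that number cannot be told apart. Of the neuronal markers, 2 of 6 were lower in females as well (summed median 2570 CPM in female and 2790 in male libraries), while 1 of 6 astrocyte, 1 of 3 ependymal and 1 of 5 markers of hypothalamus outside the SCN were higher, as were 4.91% of all genes, and 0 of 9 of oligodendrocytes were called. The 1 hepatocyte marker in the SCN table, Alb, was higher in females as well (1.30, log2; median 4.52 CPM in female and 2.74 in male libraries). Their part in the sex difference was not tested. The protocol text speaks of male mice, while the labels name 12 females a tissue, and sex-specific transcripts matched the labels in all 36 libraries of each tissue.

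Levels of some members deviated together from library to library. Deviations from group and sex means were correlated over the 36 SCN libraries for the 15 pairs of members, with two-sided permutation tests of 100000 resamples adjusted over the pairs, and 9 pairs passed by Pearson's r, all positive, the smallest at 0.43. Of all 124165161 pairs of SCN genes, 7.95% correlated at that r or above, with no test of their own. Zfhx3 and Syt10 deviated most alike (r = 0.85, rho = 0.83, both p = 1e-05, the smallest these permutations give, and both adjusted p = 0.00015), at an r that 0.0638% of all gene pairs reached. The correlation was 0.81 without the 2 libraries farthest from the median of Zfhx3, and 0.79 over the 24 males with means taken over males alone. With 1 female a group, deviations of the 12 females were taken from a 24 h curve per diet, and these gave 0.54. Deviations within a group sum to about 0 and are not independent of each other, so the permutation p are too small. Libraries with high Syt10 tended to hold much Zfhx3 as well, though the deviations of Zfhx3 were smaller.

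Lhx1 deviated with Zfhx3 (r = 0.61, rho = 0.66, permutation adjusted p = 0.00045 and 0.0003), Six6 (r = 0.61, rho = 0.55, adjusted p = 0.00045 and 0.00246) and Syt10 (r = 0.52, rho = 0.55, adjusted p = 0.00341 and 0.00246), with r of 0.61, 0.54 and 0.58 when the 2 farthest libraries were left out. Six6 deviated with Rorb (r = 0.51, rho = 0.54, permutation adjusted p = 0.00465 and 0.00246, r = 0.52 without the 2 farthest) and Rgs16 (r = 0.50, rho = 0.53, adjusted p = 0.0047 and 0.00265, r = 0.44). Rorb and Rgs16, whose daily courses were alike, gave r = 0.47 and rho = 0.45 (permutation adjusted p = 0.00761 and 0.0124, r = 0.44 without the 2 farthest), with 0.34 over males alone. The deviations of the 12 females from a 24 h curve per diet gave -0.39 for this pair. The remaining pairs that passed were Lhx1 with Rgs16 (r = 0.46, rho = 0.35, permutation adjusted p = 0.00761 and 0.0506) and Zfhx3 with Rorb (r = 0.43, rho = 0.45, adjusted p = 0.0164 and 0.0124), with r of 0.33 and 0.36 without the 2 farthest.

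By rho but not by r, 2 more pairs passed. They were Lhx1 with Rorb (r = 0.29, rho = 0.37, permutation adjusted p = 0.125 and 0.0411) and Rorb with Syt10 (r = 0.32, rho = 0.40, adjusted p = 0.0899 and 0.0283). The correlation of Rgs16 and Syt10 did not pass (r = 0.01, rho = 0.03, permutation adjusted p = 0.941 and 0.887). Library total correlated with the deviations of 2 of 6 members beyond the test, where 8.09% of all SCN genes reached the smaller of their r. These were Rgs16 (r = 0.46, rho = 0.42, permutation adjusted p = 0.0267 and 0.0356, r = 0.30 without the 2 farthest libraries) and Six6 (r = 0.42, rho = 0.43, adjusted p = 0.0331 and 0.0356, r = 0.40), and its part in the correlations of these 2 was not tested.

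**Figure D4:**
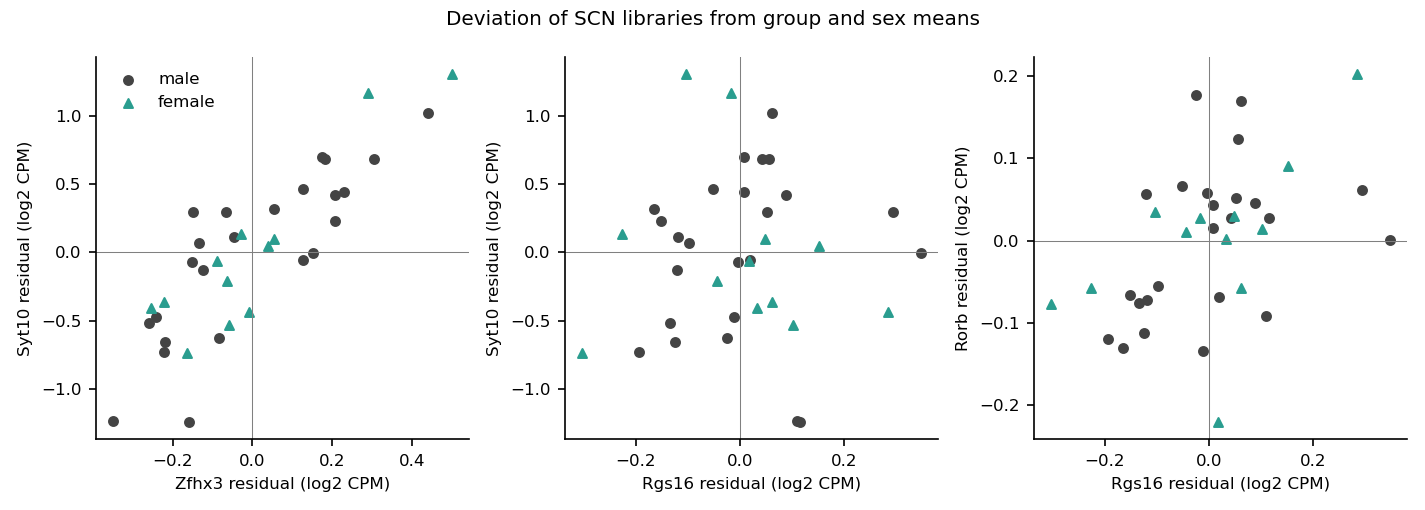
Deviation of each of the 36 SCN libraries from the mean of its group and sex (log2 CPM) for 3 pairs of members, males as dark circles and females as green triangles. Syt10 follows Zfhx3 (r = 0.85), does not follow Rgs16 (r = 0.01), and Rorb follows Rgs16 loosely (r = 0.47).

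The SCN genes whose levels were most like each member's were found by Pearson's r of log2 CPM, as a description. Over the 36 libraries, Rgs16 was most like Dbp (0.949), a clock-driven transcription factor, Bhlhe41 (0.941), a clock repressor, and Rasl11b (0.928), and over the 12 group means like Dbp (0.967), 1700016P03Rik (0.965) and Prok2 (0.965), an SCN output peptide. Rorb was most like Pde2a (0.911), a phosphodiesterase, Dusp4 (0.887), a MAP kinase phosphatase, and Rcan1 (0.885), a calcineurin inhibitor, and over the means like Rcan1 (0.982), Tor1aip2 (0.977) and Flcn (0.975). Libraries share depth and tissue composition, so likeness over 36 libraries includes both.

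For the other members, the genes most alike over the 36 libraries included Hdac9 (0.813) and Sh3rf3 (0.801) for Lhx1. Likeness was led by Nell1 (0.850), Efnb3 (0.842) and Cacna2d3 (0.831) for Six6. It was led by Srgap3 (0.837), Agap1 (0.832) and Kcnma1 (0.831), a potassium channel, for Zfhx3, and by Gm2792 (0.931), Chd5 (0.931) and Ppp1r9a (0.929) for Syt10. Over the 12 means the leading genes were Tox (0.921), 6030498E09Rik (0.919) and Rbpms2 (0.911) for Lhx1 and Atp5g2 (0.955), 1700001L19Rik (0.943) and Gstm7 (0.942) for Six6. They were Irf2bp2 (0.955), Srgap3 (0.950) and Dlx6os1 (0.936) for Zfhx3 and Prrg4 (0.971), Rbpj-ps3 (0.966) and Pum2 (0.962) for Syt10.

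Relatives of the members were read from lists, beside medians of 0.30 and 0.31 (peak-to-trough, log2) over all SCN genes on control and MCD. Of all SCN genes, 15.1% were called rhythmic on control and 16.1% on MCD. Of 15 other RGS genes tested, 7 were called rhythmic on the control diet (median 0.46) and 5 on MCD (median 0.43). The control count was 4 without the female of control CT8 and 4 with the replicate block, and the MCD count 3 in the test of any difference among times. Those with the smallest p on the control diet peaked in the subjective night: Rgs2 (0.49, CT 20.4, adjusted p = 0.00148), Rgs3 (0.65, CT 18.4, 0.00241), Rgs19 (0.56, CT 20.1, 0.00283) and Rgs5 (0.53, CT 21.4, 0.00574). On MCD, Rgs2 (0.74, CT 19.7, adjusted p = 3.3e-06) and Rgs3 (0.83, CT 16.5, 0.000128) peaked in the night, and Rgs20 (0.64, CT 9.3, 0.000726) and Rgs6 (0.72, CT 6.6, 0.00976) peaked in the subjective day, as Rgs16 did. Of 22 genes of Gi and cAMP signalling, 7 were called on control (median 0.27, and 4 with the replicate block) and 6 on MCD (median 0.21), led by Crem, a cAMP-responsive repressor (0.84, CT 7.1, adjusted p = 8.85e-07), and Gpr176, a Gz-coupled receptor of the SCN (0.60, CT 18, adjusted p = 0.000416), with the adenylyl cyclases Adcy1 (1.16, CT 19.9) and Adcy8 (0.66, CT 21.5).

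Of 16 other transcription factors of the SCN and ventral forebrain, 4 were called on control (median 0.39) and 6 on MCD (median 0.42). The shares over all SCN genes were 15.1% and 16.1%, here and for the lists below. Rora, the paralogue of Rorb, had a larger and later rhythm (1.84, CT 8.2, adjusted p = 2.43e-10) than the 0.64 at CT 5.5 of Rorb, a difference not tested here. The others called on control were Dlx5 (0.77, CT 21.4), Sox2 (0.49, CT 19.8) and Dlx2 (0.50, CT 23.7), while Six3, the paralogue of Six6, was called on MCD (0.40, CT 3.3, adjusted p = 0.00754). Of 14 other synaptotagmins, 6 were called on control (median 0.56) and 9 on MCD (median 0.64). Syt17 peaked at night (1.54, CT 20.2, adjusted p = 2.08e-11), and Syt13 (0.80, CT 7.2), Syt4 (0.82, CT 8.4) and Syt5 (0.85, CT 8.0) in the day. As a frame for these counts, 16 of 17 core clock and output genes were called on control and 17 of 17 on MCD, and 8 and 7 of 14 SCN peptides and receptors. None of these lists held a gene called for the average diet effect in the SCN in edgeR.

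Exon bins, parts of exons counted separately, were used to ask whether the make-up of the transcripts changed with diet or between day (CT0, CT4 and CT8) and night. In edgeR's test of exon usage, 0 of 6 members passed in either comparison, against 0.0458% and 0.0786% of 15275 genes. No member had an unadjusted p under 0.05: the lowest was 0.274 for diet (Rorb) and 0.509 for day against night (Six6). No other tool was run on exon bins.

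In liver, Rgs16 was expressed and rhythmic, Zfhx3 was expressed at a low level, and Lhx1 was near the limit of counting. Lhx1 held 0 to 4 counts a library on the control diet and 0 to 19 on MCD. One liver library, the control CT8 male called a, went against its label: it was the only one of 36 whose profile lay closer to the mean of the other diet, and the main fitted results that use it are given with and without it. On the control diet, Rgs16 held 20.5, 7.31 and 19.4 CPM at CT0, 86.3, 104 and 218 CPM at CT4, and 433, 47.3 (library a) and 278 CPM at CT8. It held 473, 139 and 239 CPM at CT12, 94.8, 15.7 and 82.5 CPM at CT16, and 24.4, 71.4 and 48.4 CPM at CT20. Every library of CT12 was above every library of CT0, while libraries of one group differed up to 9.15-fold, at CT8 between 433 and 47.3 CPM, and without library a up to 6.05-fold, at CT16.

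The liver rhythm of Rgs16 on the control diet had a peak at CT 9.80 ± 0.69 h (CT 9.55 ± 0.55 h without library a) and a peak-to-trough difference of 3.77 in the edgeR fit (log2; adjusted p = 5.93e-04, and 4.06 with adjusted p = 1.61e-04 without library a). Of the liver genes tested, 17.8% were called. On MCD the libraries ran from 31.5 to 332 CPM, both of them at CT12 (10.5-fold), with 51.6, 62.9 and 50.2 CPM at CT0 and 308, 329 and 182 CPM at CT8. That rhythm had its peak at CT 8.53 ± 1.26 h (2.24, adjusted p = 0.0199, and 0.0107 without library a, with 28.2% of genes called). It was lost without the MCD CT20 male 1 (adjusted p = 0.0606), with males alone (0.154) and in the test of any difference among times (0.0719). The difference in rhythm between the diets did not pass (adjusted p = 0.445, and 0.278 without library a), with 4.87% of liver genes called. At CT0 every MCD library was above every control library, as were 14.3% of liver genes.

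**Figure D5:**
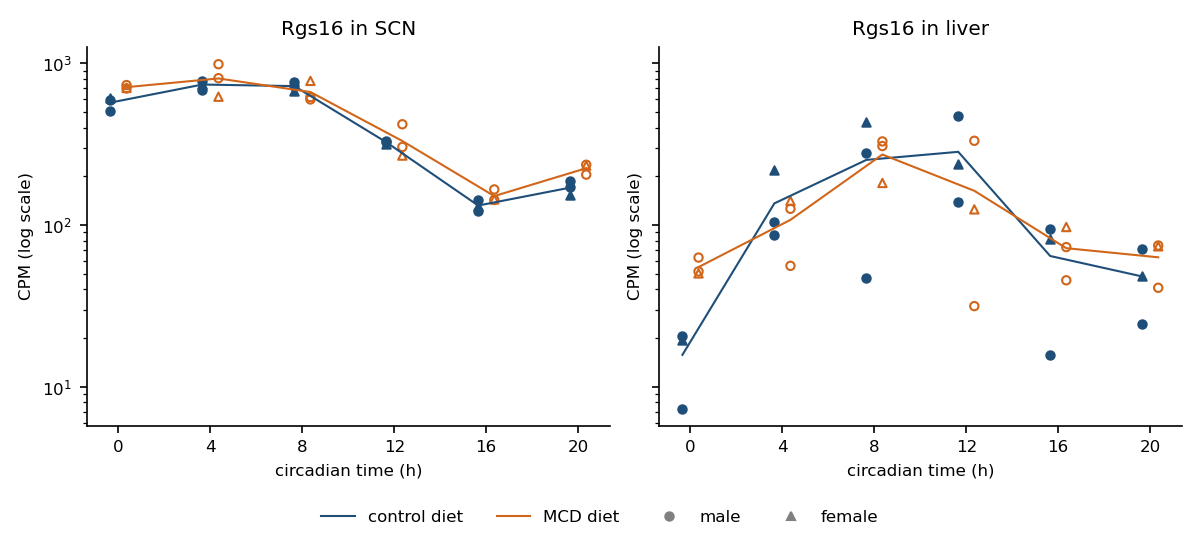
Rgs16 in each library of the SCN (left) and the liver (right) against circadian time (h), CPM on a log axis shared by the panels, control diet filled blue and MCD open orange, circles for males and triangles for females, lines through the means of 3 libraries. The control peak lay at CT 5.05 in the SCN and at CT 9.80 in liver, and the single low male at CT8 in liver is library a (47.3 CPM).

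Between tissues on the control diet, Rgs16 was higher in the SCN by 1.22 ± 0.24 (SE, log2; adjusted p = 8.09e-06, and 1.11 without library a), and Zfhx3 by 1.66 ± 0.09 (adjusted p = 2.98e-24, and 1.67 without library a), where 46.3% of the 14491 genes tested in both tissues were called higher in the SCN. The size depended on scaling: library totals alone moved the median of all genes by 0.71 and gave 1.95 for Rgs16 and 2.36 for Zfhx3. Lhx1 passed as well (adjusted p = 4.64e-33, and 5.1e-32 without library a), but its liver counts were too few for a fold: 6 counts over the 18 control libraries, 16 of which were at 0, and 66 over the 18 MCD libraries, 9 of which were at 0. The rhythm of Rgs16 on the control diet differed between the tissues, with a peak-to-trough of the difference of 3.95 (log2; adjusted p = 2.14e-05, and 4.07 with adjusted p = 2.15e-06 without library a), where 16.9% of genes were called. Tissue and method of collection cannot be told apart, since the liver was not cut by laser.

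Averaged over time, Zfhx3 was higher on MCD in liver, with 13.9 ± 2.20 CPM on control and 15.8 ± 1.83 CPM on MCD (SD, n = 18 each; 0.20 ± 0.07, SE, log2; adjusted p = 0.0153, and 0.0176 without library a), where 25.3% of liver genes were called higher. With library totals alone the median of all liver genes moved by 0.24 and the difference of Zfhx3 was 0.46. Over males alone it was 0.04 (adjusted p = 0.651). Markers of other cells moved with diet in liver: 4 of 5 of the microglia and macrophage list were higher on MCD (summed 131 to 273 CPM, against 98.9 to 220 on control), as were 4 of 6 of liver cells other than hepatocytes (248 to 409 against 225 to 381 CPM). Of erythrocyte markers 4 of 5 were lower (93.7 to 273 against 130 to 453 CPM), as were 2 of 6 of hepatocytes, and of 5 endothelial markers 2 were higher and 2 lower, where 21.2% of all liver genes were called lower. Their part in the difference of Zfhx3 was not tested. At CT20 every MCD library (16.9 to 17.8 CPM) was above every control library (11.3 to 13.3 CPM), as were 15.5% of liver genes. Rgs16 did not pass (0.25 ± 0.29, adjusted p = 0.521, and 0.15 with adjusted p = 0.694 without library a). Six6, Rorb and Syt10 were looked up in the exon-bin files of 34 liver libraries: all libraries together held 2 counts for Six6, 7 for Rorb and 2 for Syt10. The largest count in 1 library was 3, at the limit of 3 counts that corresponds to 0.0363 to 0.0669 counts per 1 M bin counts, against SCN medians of 138, 130 and 70.3.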

How the data were processed

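Raw counts were deposited as whole numbers, per gene in 1 table per tissue and per exon bin in 1 file per library, per the file headers. The submitters' processing notes name Trimmomatic, HISAT2, StringTie, DESeq2 and GRCm39, without versions; strand use is not given in the sources used here. In both tables, 2 columns of control males at CT8 share a name and are called a and b. Members and lists were chosen with earlier results of these data known.

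Genes were tested with edgeR 4.0.16 (quasi-likelihood) in R 4.3.3: 12 groups plus sex, TMM, low-count filter (minimum count 10, which kept all 15759 SCN genes and 20249 liver genes, 2 of 3 members), Benjamini-Hochberg over all genes, threshold 0.05. DESeq2 1.42.0 and limma 3.58.1 were alternatives. Peak times came from a cosinor on log2 CPM (prior count 2) with delta-method SE. Tissues were compared in 1 model of 72 libraries, treated as independent, on 14491 genes. Exon usage was tested with diffSpliceDGE (Simes), on 243310 of 472109 bins in 36 files, with 4.80% to 7.73% of reads tallied outside bins. On simulated SCN counts, the rhythm test recovered 29% and 64% of changed genes at 0.5 and 1 (log2). Of the genes it called, 7.92% were false, above the rate that a threshold of 0.05 aims at. The share was 5.77% for the rhythm difference between diets and 9.33% for the simulated tissue difference in rhythm. Named genes were the members, up to 4 called genes of each list by smallest p, and the 3 genes most alike to each member, of which some are not reported here. Floors cover counting error only, while the 95% intervals of differences rest on the spread between libraries.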

Additional observations from a re-analysis of the deposited data

Results flagged for a closer look

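The rhythm of Rgs16 on the control diet differed between SCN and liver by the test of the difference itself, with a peak-to-trough of 3.95 on the log2 scale (edgeR, adjusted p = 2.14e-05). The fitted peak lay at CT 5.05 ± 0.16 h in the SCN and at CT 9.80 ± 0.69 h in liver (CT 9.55 ± 0.55 h without library a), and the value ran from 3.28 to 4.26 when replicates 1, 2 or 3 or the liver library a were left out. Collection differed between the tissues as well, and its part was not tested. Groups of 3 libraries were not tested for outlying samples.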

How the results depend on the processing

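Of 6 members, 4 were called rhythmic in the SCN on the control diet; 2 were called (Rgs16 and Rorb) in a test of any difference among the 6 times and 2 with the replicate number as a block, and 2 to 4 with replicates left out. On MCD 2 to 3 were called with replicates left out. In liver, the 1 member called rhythmic on MCD (Rgs16) became 0 in the test of any difference among times, and 0 to 1 with replicates left out. The 1 member called for the average diet effect in liver (Zfhx3) became 2, with Lhx1 added at few counts, with no filter on low counts and with the replicate block, and 0 to 1 with replicates left out. The sex difference called 1 to 2 members with replicates left out. Of 9 pairs of members that deviated together, 1 passed over the 12 females in deviations from a 24 h curve per diet, where Rorb and Rgs16 reversed to -0.39. In the females' deviations from group and sex means 1 passed, but these are fixed by the males of the same group and give no separate reading. With the replicate block 8 pairs passed, without Zfhx3 and Rorb (0.34). The females' deviations from group and sex means and the block for these pairs were chosen after seeing the data. The causes were not tested. SCN genes called rhythmic on the control diet numbered 2378, and 1354 in the test of any difference among times. With the block they were fewer. Gene fits with the block left out the control CT8 males a and b and kept 1 library in that group. Changes under it thus cannot be assigned to blocking alone.

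Replicate numbers were not taken to pair the libraries. The rule asked every same-numbered pair to correlate above 0.1, and 32 of 55 pairs for number 1, 5 of 55 for number 2 and 28 of 66 for number 3 did. So strict a rule cannot decide whether the numbers mark a shared batch. Correlations of deviations from group means averaged 0.107, 0.021 and 0.094 for numbers 1, 2 and 3, with different numbers at -0.036. Sex was not taken out of these deviations, and number 3 is all female. Of 34 numbered libraries 26 were most like their own number, a hint of such a batch from the data only, which was not tested. The block changed no other count of members called. In the SCN the lowest count of a member in 1 library was 435 (Syt10). In liver, levels of Lhx1, Six6, Rorb and Syt10 below the limit of counting were not detectable at this depth.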
